A study of Mus musculus with 12 samples.

Results

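Eph receptors were followed through 12 mouse tumours as a set of 10 receptor genes, Epha2, Epha3, Epha4, Epha5, Epha7, Ephb1, Ephb2, Ephb3, Ephb4 and Ephb6, chosen by name from the 54532 genes counted in each library. They are 10 of the 14 Eph receptor genes in the mouse annotation. Of the 10, 9 had enough reads to be tested, and Epha5 did not. The tumours were malignant peripheral nerve sheath tumours, sarcomas of the nerve sheath, raised in C57B/6 mice of genotype WT by an adenovirus carrying Cas9 aimed at mouse Nf1 and at a locus written Cdk2na in the labels, taken here to be Cdkn2a. Each group held 4 tumours. Vehicle tumours came from mice gavaged with the vehicle and were taken at the terminal time point. Regressing tumours came from mice gavaged daily with 100 mg/kg palbociclib, which blocks CDK4 and CDK6, plus 1 mg/kg mirdametinib, which blocks MEK, and were taken while shrinking. Terminal combination tumours received the same drugs and were taken at the terminal time point, so harvest time differs between the treated groups together with tumour state. Every tumour shared the same induction, and no untouched nerve was included. Nothing in the labels ties the tumours to separate animals, so p-values cover the spread between these samples only.

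Eph receptors form the largest family of receptor tyrosine kinases. Their ligands, the ephrins, sit on the surface of neighbouring cells, so the pair signals at cell contacts and in both directions. EphA receptors mostly bind ephrin-A ligands, which are held by a lipid anchor, and EphB receptors mostly bind ephrin-B ligands, which span the membrane. In peripheral nerve, contact between ephrin-B on fibroblasts and EphB2 on Schwann cells guides Schwann cell sorting after injury, and in vessels EphB4 and ephrin-B2 separate veins from arteries.

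Libraries held 13194699 to 22639625 counted reads, and a count of 0 in a library allowed 0.133 to 0.227 CPM (read counts scaled to the library's size), for counting error only. The targeted genes were transcribed in every tumour, Nf1 at 10.2 to 23.8 CPM and Cdkn2a at 5.08 to 393 CPM. Counts per gene do not show edits in the sequence, so they do not tell whether the targeting worked. Of 15 Schwann lineage markers, 12 had enough reads to be tested, and their summed level ran from 195 to 486 CPM in vehicle, 208 to 250 CPM in regressing and 188 to 328 CPM in terminal combination tumours; Sox10, which defines the lineage, averaged 0.0341 CPM in vehicle tumours, under the counting limit. All 14 skeletal muscle markers were detected, with summed levels of 659 to 10624 CPM in vehicle, 4653 to 62396 CPM in regressing and 3141 to 39218 CPM in terminal combination tumours. The 10 adipocyte markers summed to 17.9 to 137 CPM, 259 to 2280 CPM and 84.2 to 577 CPM in the same order. The 12 cycling cell markers summed to 848 to 1323 CPM in vehicle, 347.5 to 971 CPM in regressing and 219 to 957 CPM in terminal combination tumours. Markers of B and plasma cells, 7 of 9 tested, summed to 45.02 to 214 CPM, 182 to 1668 CPM and 38.8 to 83.6 CPM. Keratinocyte and epithelial markers, 8 of 12 tested, summed to 85.4 to 1792 CPM, 29.15 to 931 CPM and 30.1 to 2855 CPM in the same order. Apart from the muscle score used as a covariate, the part of these cell types in the receptor differences was not tested. In bulk tissue, fewer cells of a type and less RNA per cell cannot be told apart. Titles of 2 vehicle, 1 regressing and 1 terminal combination library end in FFT, which the sources used here do not explain, and values within the 8 other libraries are given beside the main ones.

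Ephb4 and Epha2 made up most of the Eph receptor signal once counts were divided by gene length. On the scale of CPM per kilobase of exon, Ephb4, the receptor of venous endothelium and of many carcinomas, stood highest in every group, at 21.7 ± 5.6 (SD, n = 4) in vehicle, 20.8 ± 2.69 in regressing and 19.7 ± 2.87 in terminal combination tumours. Epha2, a receptor of epithelial and tumour cells whose gene is a known target of ERK signalling, came next at 12.04 ± 3.68, 9.52 ± 4.64 and 16.3 ± 3.4 CPM per kilobase. The mean ± SD ranges of these receptors were apart in vehicle and regressing tumours and overlapped in terminal combination tumours. Epha3, Ephb3, Ephb2 and Ephb6 followed in vehicle tumours at 5.61 ± 4.27, 5.25 ± 3.11, 3.71 ± 1.46 and 3.53 ± 0.542 CPM per kilobase, and each overlapped its neighbour in that order. In terminal combination tumours Ephb6 at 6.52 ± 1.78 and Ephb3 at 5.33 ± 0.487 CPM per kilobase overlapped each other and stood apart from Epha2 above and Epha3 below. Epha7, Epha4 and Ephb1 lay under 1.5 CPM per kilobase on average in every group, and Epha5 at or under 0.103.

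As a share of the summed signal of all 14 Eph genes per kilobase, Ephb4 held 40.9% ± 7.82 and Epha2 24.0% ± 6.84 over the 12 tumours (SD). Ephb4 ranked first in 11 of 12 tumours, with a share of 32.7% to 59.9%. The exception was terminal combination replicate 3, where Epha2 held 35.7% and Ephb4 33.2%. Epha2 ranked second in 10 tumours, and in vehicle replicate 3 Epha3 came second at 22%, just over Epha2 at 21.9%. The highest Ephb4 share, 59.9%, was in regressing replicate 4, where Epha2 had its lowest share, 12.9%. Together the first 2 receptors of a tumour held 55.5% to 72.9%, so the same pair led in nearly all tumours while the third place changed between Ephb3, Ephb6, Ephb2 and Epha2.

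**Figure D1:**
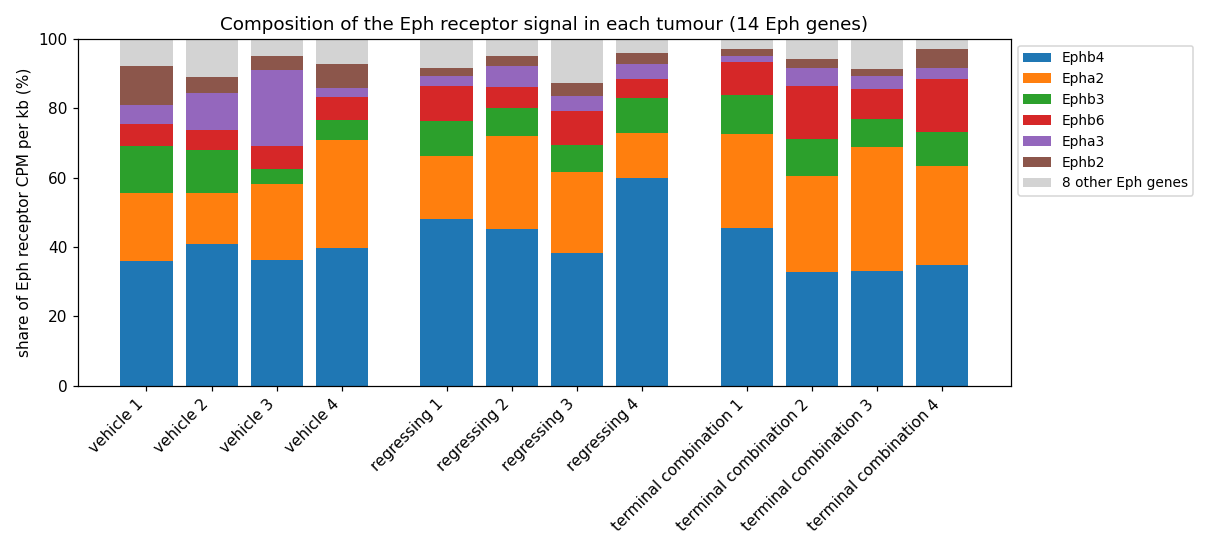
Share of the Eph receptor signal (CPM per kilobase, 14 genes, in %) in each of the 12 tumours, 1 bar per tumour in 3 groups of 4. Ephb4 is the largest block in 11 of 12 bars and Epha2 in terminal combination replicate 3.

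Promoter sequence is printed for the receptors on which the comparisons turn, Ephb2, Epha3 and Ephb6, and for Ephb4, whose level varied least. Each run is the 250 bases before the RefSeq transcript start (GRCm38.p6), 5′ to 3′ on the gene's own strand, and capitals mark matches to the motifs searched. All 10 receptors had an entry, 11 windows in all because Epha7 has a second start. The Ephb2 window is chr4:136836013-136836262 on the minus strand, that of Epha3 chr16:63864176-63864425 on the minus strand, that of Ephb6 chr6:41605261-41605510 on the plus strand and that of Ephb4 chr5:137349859-137350108 on the plus strand.
Ephb2 promoter: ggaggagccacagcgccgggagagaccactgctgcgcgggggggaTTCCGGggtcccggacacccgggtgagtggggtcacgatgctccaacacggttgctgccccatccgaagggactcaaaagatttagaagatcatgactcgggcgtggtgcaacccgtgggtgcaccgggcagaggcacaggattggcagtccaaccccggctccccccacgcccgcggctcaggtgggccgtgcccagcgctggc
Epha3 promoter: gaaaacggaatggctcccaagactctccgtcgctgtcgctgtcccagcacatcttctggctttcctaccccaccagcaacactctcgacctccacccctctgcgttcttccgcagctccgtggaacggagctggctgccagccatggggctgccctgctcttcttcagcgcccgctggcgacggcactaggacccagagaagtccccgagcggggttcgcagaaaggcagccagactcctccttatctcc
Ephb6 promoter: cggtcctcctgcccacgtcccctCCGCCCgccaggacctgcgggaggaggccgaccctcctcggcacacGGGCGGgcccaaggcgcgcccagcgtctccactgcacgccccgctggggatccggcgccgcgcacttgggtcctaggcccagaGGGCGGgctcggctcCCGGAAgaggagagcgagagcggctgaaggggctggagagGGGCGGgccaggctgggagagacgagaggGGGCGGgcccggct
Ephb4 promoter: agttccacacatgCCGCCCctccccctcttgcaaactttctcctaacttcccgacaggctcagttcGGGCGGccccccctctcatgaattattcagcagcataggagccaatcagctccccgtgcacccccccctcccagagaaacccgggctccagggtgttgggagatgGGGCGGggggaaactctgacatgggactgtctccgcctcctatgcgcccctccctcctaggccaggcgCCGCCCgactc
The letters searched, on both strands, were the ETS core CCGGAA, the AP-1 site TGANTCA, the GC box GGGCGG, the E-box CACGTG and TATAAA, none of which contains another. The ETS core is in the windows of Ephb2 and Ephb6, once each, and in 12% of 32851 mouse promoter windows of the same length. The GC box occurs 5 times in the Ephb6 window and 4 times in that of Ephb4, is absent from those of Ephb2 and Epha3, and is in 32.7% of all windows. AP-1, E-box and TATA letters are in none of the 11 receptor windows, against 6.75%, 6.02% and 12.4% of all windows. The receptor windows were GC-rich, from 54% for Ephb1 to 76.8% for Ephb6, with a median of 52.4% over all windows. A match is a description of these letters and not evidence that a factor binds there.

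Regressing tumours were set against vehicle tumours first, to see which receptors differ while a tumour shrinks on the drug pair. Ephb2 and Epha3 had lower means in regressing tumours, and Ephb4 differed by a log2 value near 0. None of the 9 tested receptors passed an adjusted p of 0.05 in edgeR, as was so for all 15650 genes (0% called). Of the 9, 2 had an unadjusted p under 0.05 and both were lower. Over all genes 12.7% had such a p in either direction, 6.03% lower and 6.72% higher. No receptor separated the groups without overlap, while 7.64% of all genes did, 4.13% lower and 3.5% higher. DESeq2 called 1 of the 9, Ephb2, and 3.05% of all genes. The median log2 difference of the 9 was -0.34, beside -0.02 over all genes tested, with 7 lower and 2 higher.

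Ephb2 (ENSMUSG00000028664, chromosome 4, 136647539 to 136835988, GRCm38, minus strand) encodes the ephrin-B receptor of Schwann cell sorting and axon guidance. Its levels were 69.7, 42.5, 25.3 and 49.4 CPM in vehicle replicates 1 to 4 and 14.1, 14.9, 29.0 and 11.5 CPM in regressing replicates 1 to 4. All regressing tumours but replicate 3 lay under every vehicle tumour, and replicate 3 lay above vehicle replicate 3, so the groups overlapped. The means were 17.4 ± 7.87 (SD, n = 4) against 46.7 ± 18.4 CPM, which is -1.42 on the log2 scale (SE 0.42), and adjusted p was 0.254 in edgeR and 0.0405 in DESeq2. Over the 8 libraries without the title ending the difference was -1.01 (SE 0.54, edgeR adjusted p = 0.651), and with the muscle score, the mean log2 CPM of the muscle markers, as a covariate it was -1.70.

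Epha3 (ENSMUSG00000052504, chromosome 16, 63543534 to 63864175, minus strand), a receptor of mesenchymal and embryonic tissues, varied widely among vehicle tumours. Its vehicle values were 23.6, 67.0, 92.0 and 12.6 CPM in replicates 1 to 4, and its regressing values 10.3, 23.5, 23.2 and 11.1 CPM. The vehicle mean thus rested on replicates 2 and 3, while vehicle replicates 1 and 4 lay in or just above the regressing range. The log2 difference was -1.52 (SE 0.58, edgeR adjusted p = 0.318, DESeq2 adjusted p = 0.138), and -1.44 (SE 0.71) in the 8 libraries without the title ending. It was -0.9998 without vehicle replicate 3 and -0.64 with the muscle score as a covariate, so these settings moved it by more than 1.5 times.

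The remaining tested receptors gave log2 differences from -1.56 to 0.09 between regressing and vehicle tumours with no unadjusted p under 0.05. The lowest belonged to Epha7, a receptor of neural patterning, whose SE was 1.22. Epha7 stood at 3.34, 41.0, 10.7 and 0.875 CPM in vehicle and 6.82, 5.75, 6.08 and 0.154 CPM in regressing replicates 1 to 4. Vehicle replicates 2 and 3 lay above all regressing tumours, and vehicle replicates 1 and 4 lay inside the regressing range. Ephb3, a receptor of intestinal crypts and neural tissue, ran from 13.9 to 59.2 CPM in vehicle and 19.9 to 33.4 CPM in regressing tumours. Ephb4 (ENSMUSG00000029710, chromosome 5, 137350109 to 137378669, plus strand) was the steadiest, at 81.7, 136.4, 81.2 and 103 CPM in vehicle and 100.5, 90.9, 111 and 82.4 CPM in regressing replicates 1 to 4, a ratio of 1.74 between the highest and lowest of all 12 tumours. The 12 endothelial markers summed to 351 to 923 CPM in vehicle and 733 to 942 CPM in regressing tumours, and their part in the Ephb4 level was not tested.

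**Figure D2:**
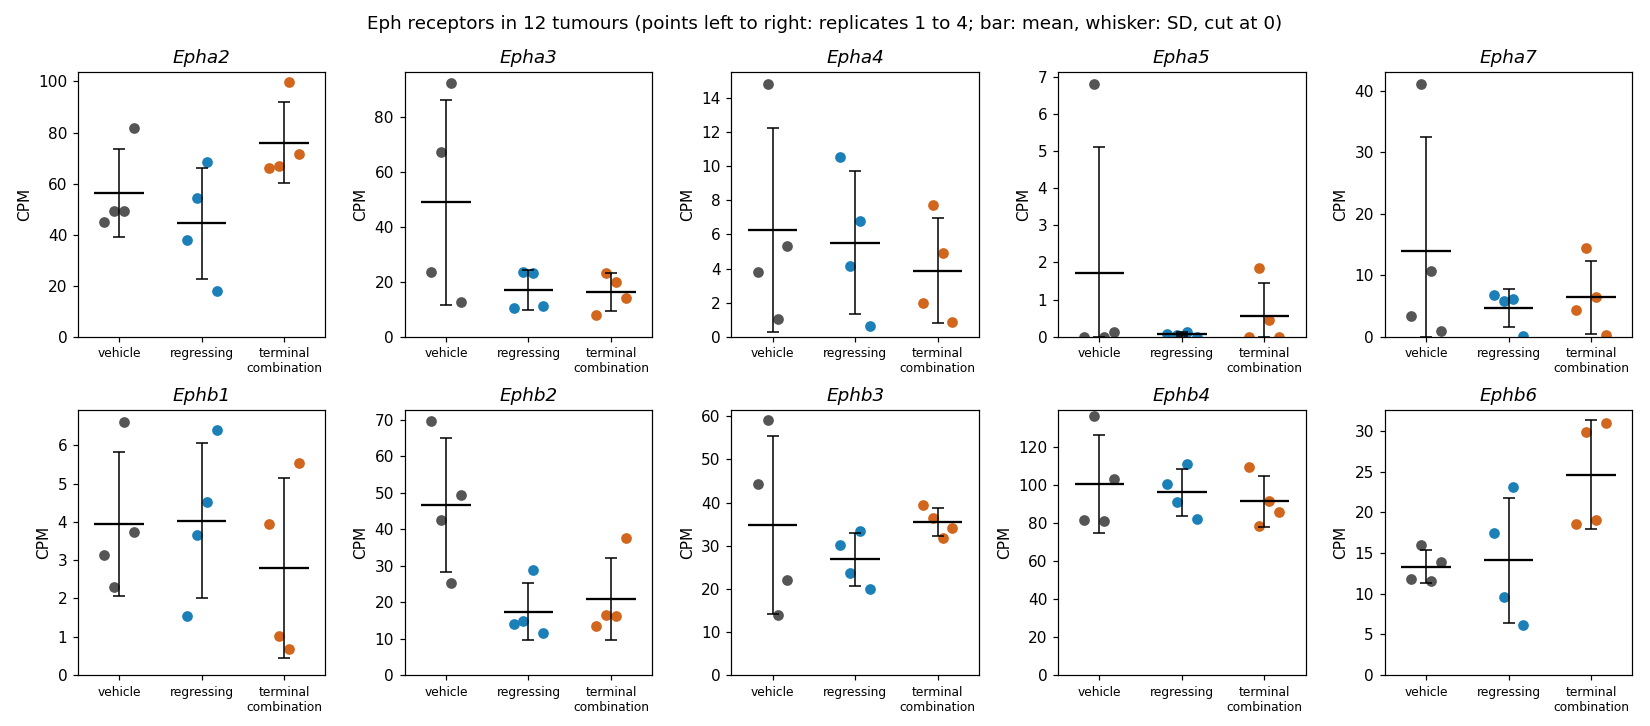
CPM of the 10 Eph receptors in each tumour, 1 panel per gene with its own axis from 0, points for replicates 1 to 4, bars for means and whiskers for SD. Ephb2 and Epha3 reach 69.7 and 92.0 CPM in vehicle tumours and stay at 37.5 CPM or less in treated tumours, Ephb6 is higher in all 4 terminal combination tumours than in any vehicle tumour, and the Ephb4 points of the 3 groups overlap.

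The second comparison, terminal combination against vehicle tumours, sets treated tumours against untreated ones taken at the same harvest stage. Ephb2 and Epha3 again had lower means in the treated group, and Ephb6 a higher one. No receptor passed an adjusted p of 0.05 in edgeR (0% of all genes) or in DESeq2, which called 0.0895% of all genes. Unadjusted p-values under 0.05 were found for 2 receptors that were lower, against 2.59% of all genes, and for 1 that was higher, against 3.35% (5.94% in either direction). This comparison shares its vehicle tumours with the first, so agreement between them is not separate evidence. The median log2 difference of the 9 receptors was -0.50, beside 0.00 over all genes, with 6 lower and 3 higher.

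Ephb6 (ENSMUSG00000029869, chromosome 6, 41605482 to 41620509, plus strand) encodes a receptor whose kinase domain is inactive and which signals through its partners. It stood at 11.8, 15.9, 11.6 and 13.9 CPM in vehicle and 18.6, 29.8, 19.1 and 31.0 CPM in replicates 1 to 4 of the terminal combination group. Every terminal combination tumour lay above every vehicle tumour, the only case of no overlap among the 9 receptors in this comparison, where 1.21% of all genes were higher without overlap, 1.3% lower and 2.5% either. The means were 24.6 ± 6.71 (SD, n = 4) against 13.3 ± 2.04 CPM, a log2 difference of 0.89 (SE 0.36), with adjusted p of 0.819 in edgeR and 0.478 in DESeq2. It was 1.06 (SE 0.55) without the libraries titled FFT. Over all 20 alternatives tried it lay between 0.76 and 1.06.

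Ephb2 levels in replicates 1 to 4 of the terminal combination group were 13.5, 16.5, 16.1 and 37.5 CPM. Replicates 1 to 3 lay under all 4 vehicle tumours and replicate 4 lay among them. The log2 difference from vehicle was -1.16 (SE 0.41, edgeR adjusted p = 0.819), and it was -0.68 (SE 0.54) in the 8 libraries without the title ending. Leaving out terminal combination replicate 4 made it -1.60. Epha3 stood at 7.83, 23.1, 19.99 and 14.1 CPM, all within or under the span between vehicle replicates 4 and 1, and differed by a log2 value of -1.59 (SE 0.58, edgeR adjusted p = 0.819). With the muscle score as a covariate that difference was -0.71. Epha2 and Ephb3 did not pass an unadjusted p of 0.05 in this comparison.

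**Figure D3:**
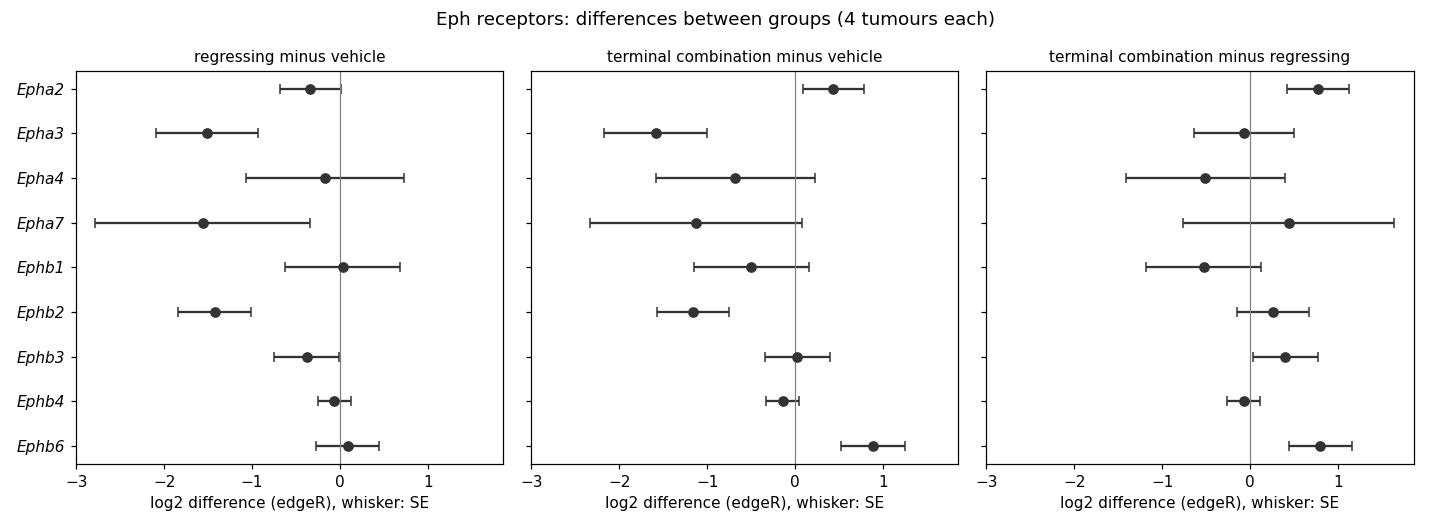
Log2 differences of the 9 tested Eph receptors in the 3 comparisons (x axis, edgeR estimate, points) with their SE (whiskers). Ephb2 lies at -1.42 and -1.16 and Epha3 at -1.52 and -1.59 against vehicle, and Ephb6 at 0.89 and 0.80 for terminal combination against vehicle and against regressing tumours.

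The third comparison, terminal combination against regressing tumours, sets the later treated state against the shrinking one. Epha2 and Ephb6 had higher means in terminal combination tumours. Both had an unadjusted edgeR p only just under 0.05, 0.0490 for Epha2 and 0.0487 for Ephb6. Of all genes, 4.12% were higher with a p under 0.05. No receptor was lower with such a p, against 2.9% of all genes (7.02% in either direction). None was called by edgeR (0% of all genes) or DESeq2 (0.326%), and no receptor separated the groups without overlap, where 3.9% of all genes did, 2.4% higher and 1.51% lower. The median log2 difference was 0.27, beside 0.01 over all genes, with 5 higher and 4 lower.

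Epha2 (ENSMUSG00000006445, chromosome 4, 141301240 to 141329384, plus strand) stood at 44.8, 49.2, 49.2 and 81.9 CPM in vehicle, 37.7, 54.2, 68.3 and 17.9 CPM in regressing and 66.2, 66.8, 99.7 and 71.7 CPM in terminal combination replicates 1 to 4. Regressing replicate 3 lay above the 2 lowest terminal combination tumours, and the other regressing tumours lay under all 4. The log2 difference was 0.77 (SE 0.35), with adjusted p of 0.708 in edgeR and 0.515 in DESeq2, and it was 0.76 (SE 0.47) without the libraries titled FFT. It was 0.51 without regressing replicate 4 and 0.36 without the 3 libraries of highest muscle score, regressing replicates 1 and 4 and terminal combination replicate 2. For Ephb6, regressing values were 17.5, 9.64, 23.1 and 6.17 CPM, which span the vehicle values and reach into the terminal combination ones. Its log2 difference was 0.80 (SE 0.36, edgeR adjusted p = 0.708), 1.03 (SE 0.48) without the libraries titled FFT, and 0.46 without those of highest muscle score.

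Asked for any difference among the 3 groups, 2 of the 9 receptors, Ephb2 and Epha3, had an unadjusted p under 0.05 and 9.46% of all genes did. Their edgeR adjusted p were 0.477 and 0.503, and DESeq2 called none of the receptors at an adjusted p of 0.05, against 1.67% of all genes. Ephb4 and Epha4 had adjusted p of 0.921 and 0.914. These p-values do not show that levels were alike: the SE of the Ephb4 differences was 0.19 on the log2 scale, and that of Epha4 0.90 to 0.91.

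The low receptors differed mainly between single tumours. Epha4, which binds ephrins of either class, stood at 3.81, 14.8, 1.02 and 5.31 CPM in vehicle, 10.5, 4.12, 6.79 and 0.617 CPM in regressing and 2.0, 7.74, 4.89 and 0.856 CPM in terminal combination replicates 1 to 4. Ephb1, an axon guidance receptor, stood at 3.12, 2.29, 6.61 and 3.73 CPM, 1.53, 3.66, 4.53 and 6.40 CPM, and 3.94, 1.01, 0.684 and 5.53 CPM in the same order. All groups overlapped for both. Epha7 stood at 4.30, 14.5, 6.45 and 0.342 CPM in terminal combination tumours, and over all 12 tumours its highest value was 266 times its lowest. Epha5, a receptor of neurons, had 142 reads in all, 95 of them in vehicle replicate 2, 31 in terminal combination replicate 2 and 9 in terminal combination replicate 3, and at most 3 in any other library. Those 3 libraries held it at 6.79, 1.85 and 0.44 CPM, and 5 libraries held no read of it. The pseudogene Hmgn2-ps1, with 149 reads, overlaps Epha5 on the opposite strand.

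The extremes of the family lay in particular tumours. Vehicle replicate 2 held the highest value of 5 of the 10 receptors, Epha4, Epha5, Epha7, Ephb3 and Ephb4, and the highest sum over the 10 at 435 CPM. Regressing replicate 4 held the lowest value of 5 of the 9 tested receptors, Epha2, Epha4, Epha7, Ephb2 and Ephb6, and the lowest sum at 156 CPM. The other 10 tumours summed to between 229 and 306 CPM. Vehicle replicate 2 had the lowest muscle score of all tumours, 4.45, and regressing replicate 4 had a muscle score of 10.8 beside the highest adipocyte and T cell scores, 5.62 and 5.32. The highest muscle score, 11.01, was in regressing replicate 1, whose receptors summed to 229 CPM. Vehicle replicate 2 and regressing replicate 4 were also the libraries with the fewest counted reads, 14181703 and 13194699. The part of those tissues or of depth in the receptor sums was not tested.

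Levels of the receptors were compared with each other across the 12 tumours. Among 36 pairs of the 9 tested receptors, Pearson r of log2 CPM was positive in 28 and negative in 8, with a median of 0.20. By a permutation test with Benjamini-Hochberg adjustment over the pairs none passed 0.05, with 4 pairs under 0.05 unadjusted for Pearson r and 3 for Spearman's coefficient. Epha4 and Epha7 had r = 0.70 (permutation p = 0.0111, adjusted p = 0.205) and a Spearman coefficient of 0.70 (permutation p = 0.0145, adjusted p = 0.261), and r was 0.71 with group means removed. It was 0.31 without the 2 tumours farthest from the median on Epha4, and also without the 2 farthest on Epha7. The relation was thus weaker without them, though leaving out extreme tumours narrows the range and can itself lower r. With any 1 library left out, r was 0.56 to 0.86. Epha2 and Ephb6 had r = 0.70 (permutation p = 0.0121, adjusted p = 0.205) and a Spearman coefficient of 0.64 (permutation p = 0.0302, adjusted p = 0.363), with r = 0.74 within the 8 libraries lacking the title ending and 0.56 with group means removed. That r was 0.45 without the 2 tumours farthest on Epha2, 0.37 without the 2 farthest on Ephb6, and 0.42 without regressing replicate 4 alone (permutation, adjusted p = 0.861). It was thus weaker without that library, though here too a narrower range can itself lower r. Without the same library, Epha4 with Epha7, Epha4 with Ephb1 and Epha3 with Epha7 each had a permutation adjusted p of 0.828. Epha4 and Ephb1 went opposite ways, with r = -0.67 (permutation p = 0.0171, adjusted p = 0.205) and a Spearman coefficient of -0.71 (permutation p = 0.0118, adjusted p = 0.261). Their r was -0.55 without the 2 tumours farthest on Epha4 and -0.85 without the 2 farthest on Ephb1. It was -0.66 within the 8 libraries and -0.81 with group means removed. Epha3 and Epha7 had r = 0.62 (permutation p = 0.0332, adjusted p = 0.299) and a Spearman coefficient of 0.48 (permutation p = 0.121, adjusted p = 0.602). Their r was 0.43 without the 2 tumours farthest on Epha3, 0.63 without the 2 farthest on Epha7 and 0.71 within the 8 libraries. Epha4 and Epha7 had r = 0.62 within those libraries.

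**Figure D4:**
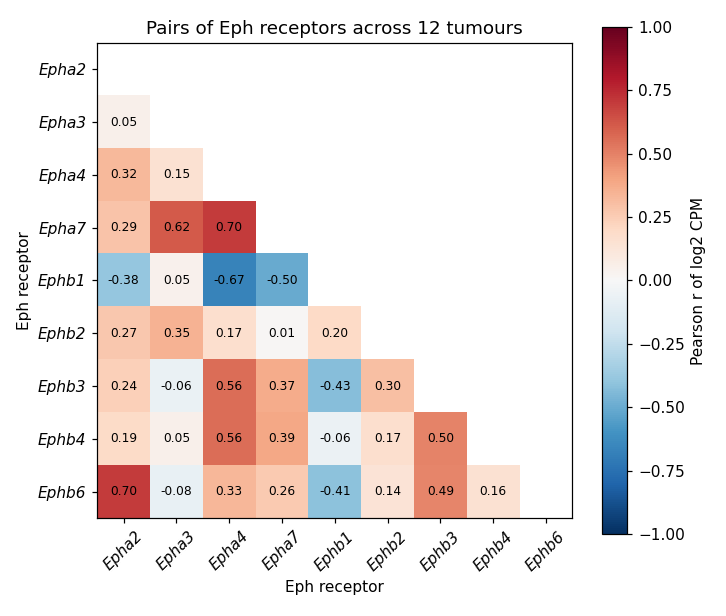
Pearson r of log2 CPM (colour, from -1 to 1) for the 36 pairs of tested Eph receptors over 12 tumours. Epha4 with Epha7 and Epha2 with Ephb6 are at 0.70 and Epha4 with Ephb1 at -0.67, and most other cells lie nearer 0.

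The genes most like each receptor, those with the highest Pearson r of log2 CPM over the 12 tumours among all genes tested, are given as a description, since the highest of 15650 values is high by selection. For Ephb2 they were Ttyh3 (r = 0.96), a chloride channel family gene, and Opn3 (0.86). For Epha2 they were Cttn (0.94), which encodes the actin-binding protein cortactin, and Prkar1a (0.93), a regulatory subunit of protein kinase A. For Ephb4 they were Plekhh3 (0.91) and Klhl10 (0.89), for Ephb6 Slc22a17 (0.90) and Mgl2 (0.90), and for Ephb3 Iqsec2 (0.90) and Trmt12 (0.88). For Epha3 they were B630019K06Rik (0.90) and Rsl24d1 (0.90), for Epha4 Ctps2 (0.90) and Gm45629 (0.87), for Epha7 Gm43719 (0.92) and Creg2 (0.89), and for Ephb1 Clca2 (0.90) and Gm43305 (0.87). No receptor of the family was among the 2 nearest genes of another.

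Of the 4 other Eph receptor genes, only Epha1, an epithelial receptor, was above the filter, at 0.661 to 10.9 CPM in vehicle, 0.771 to 23.0 CPM in regressing and 0.819 to 14.3 CPM in terminal combination tumours. Epha1 overlaps the abundant gene Zyx on the opposite strand, which had 84851 reads to its 1527, and the sources used here do not say whether counting used strand. Epha6, Epha8 and Epha10 had 10, 12 and 1 reads over all 12 libraries.

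The 8 ephrin genes were all tested, and none was called by edgeR (0% of all genes) or DESeq2 in any comparison. DESeq2 called 3.05% of all genes in the first comparison, 0.0895% in the second and 0.326% in the third. At such shares the lack of calls does not set the ephrins apart from other genes. Against vehicle, all 5 ephrin-A and all 3 ephrin-B genes had negative log2 differences in regressing tumours, with medians of -0.98 and -0.62 beside -0.02 over all genes. Efna2 alone had an unadjusted p under 0.05 there, against 6.03% of all genes that were lower. It stood at 7.40, 10.2, 3.91 and 7.53 CPM in vehicle and 4.91, 1.80, 4.57 and 2.85 CPM in regressing replicates 1 to 4. Vehicle replicate 3 lay among the regressing values and the other vehicle tumours above them. The log2 difference was -1.03 (SE 0.38, edgeR adjusted p = 0.296), and -0.89 (SE 0.50) without the libraries titled FFT.

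Efnb2, the transmembrane ephrin of arteries that binds EphB4 and EphB2, had a higher mean in terminal combination than in regressing tumours. It stood at 35.5, 87.4, 58.0 and 138 CPM in vehicle, 69.8, 73.5, 86.2 and 39.1 CPM in regressing and 87.6, 140.0, 238 and 91.3 CPM in terminal combination replicates 1 to 4. Every terminal combination tumour lay above every regressing one, by as little as 87.6 against 86.2 CPM, where 2.4% of all genes were higher without overlap, and vehicle tumours spanned both. The log2 difference was 1.05 (SE 0.44), with adjusted p of 0.703 in edgeR and 0.419 in DESeq2. It was 1.239 (SE 0.48) without the libraries titled FFT and 0.65 without terminal combination replicate 3.

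Efnb1, also a transmembrane ligand, ran from 13.98 to 86.1 CPM in vehicle, 13.9 to 57.3 CPM in regressing and 26.7 to 72.0 CPM in terminal combination tumours. Efna1, the ligand of EphA2 in many epithelia, ran from 15.7 to 34.0, 11.6 to 21.9 and 12.7 to 29.3 CPM, Efna4 from 6.61 to 11.6, 1.93 to 7.96 and 4.71 to 16.5 CPM, and Efna5 from 6.10 to 19.4, 0.849 to 11.7 and 3.54 to 17.3 CPM. Efna3 and Efnb3 stayed at or under 2.80 and 8.72 CPM. Regressing replicate 4 held the lowest value of 6 of the 8 ephrins, as it did for 5 receptors, and vehicle replicate 2 the highest of 3. The part of tissue content in these ranks was not tested.

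**Figure D5:**
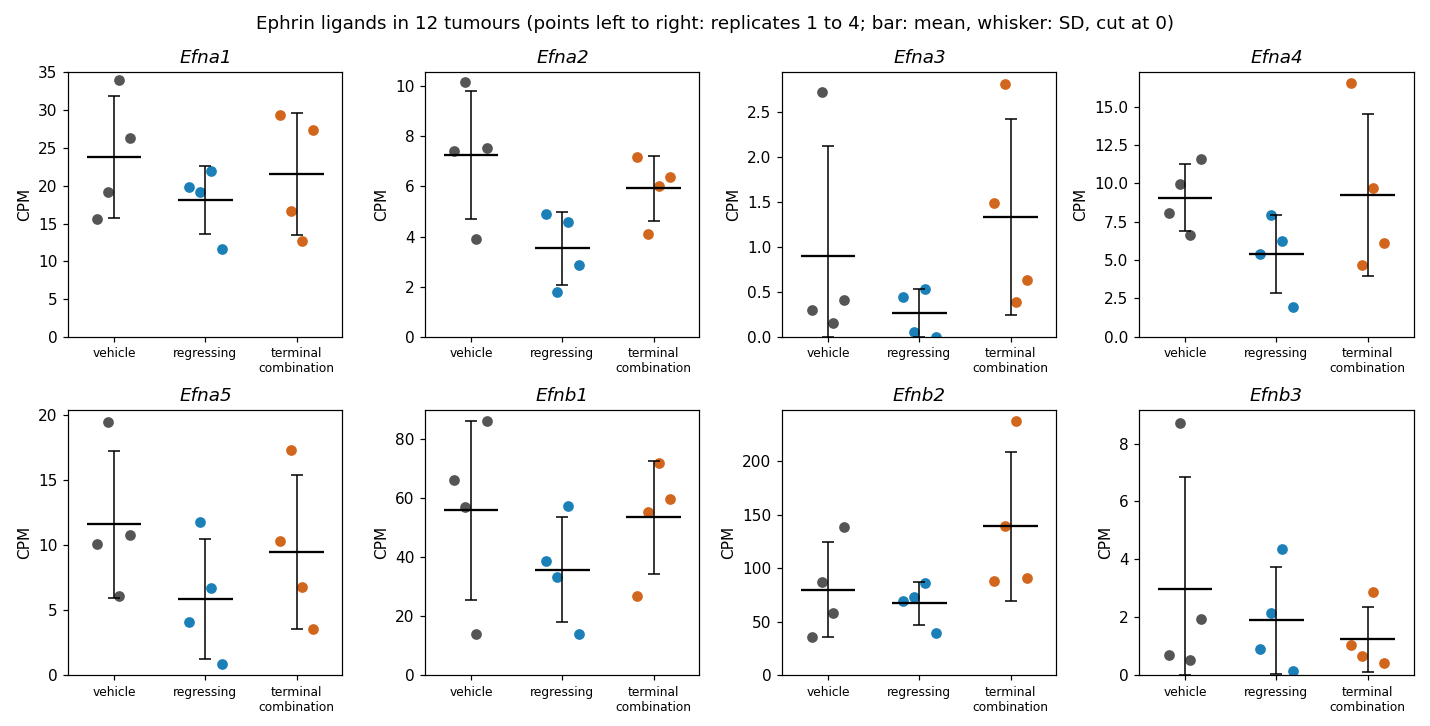
CPM of the 8 ephrin genes in each tumour, 1 panel per gene with its own axis from 0, points for replicates 1 to 4, bars for means and whiskers for SD. Efnb2 is at 87.6 CPM or more in terminal combination tumours and at 86.2 CPM or less in regressing ones, and the other ephrins overlap between groups.

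Genes that act downstream of Eph receptors were described by 2 lists. Of 24 adaptors and cytoplasmic kinases, 22 were tested, 16 with a negative and 6 with a positive log2 difference between regressing and vehicle tumours. Over all 15650 genes tested, 8052 were lower and 7598 higher. The median log2 difference was -0.21 for the list, beside -0.02 over all genes. In that comparison 3 were lower with an unadjusted p under 0.05 (6.03% of all genes), DESeq2 called 2 (3.05% of all genes) and edgeR 0 (0%). Between terminal combination and regressing tumours 5 of the 22 were higher with an unadjusted p under 0.05, against 4.12% of all genes.

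Yes1, a SRC family kinase, averaged 25.9 ± 3.97 CPM (SD, n = 4) in vehicle, 16.0 ± 3.14 CPM in regressing and 20.2 ± 1.03 CPM in terminal combination tumours, with an edgeR adjusted p of 0.477 for any difference. Abl1 and Abl2, kinases through which Eph receptors repel cells, averaged 161 ± 10.9 and 94.1 ± 26.2 CPM in vehicle, 123 ± 3.79 and 59.0 ± 16.3 CPM in regressing, and 142 ± 19.7 and 89.3 ± 16.7 CPM in terminal combination tumours (edgeR adjusted p = 0.511 and 0.518). In each of these 3 the regressing mean was lowest and the terminal combination mean lay between the others. The 2 adaptors and kinases that DESeq2 called for regressing against vehicle were Yes1 and Abl1 (DESeq2 adjusted p = 0.0139 and 0.0373). Abl2 was not called (DESeq2 adjusted p = 0.164). For Yes1 and Abl1 every regressing tumour lay under every vehicle tumour, where 4.13% of all genes were lower without overlap. Of 11 phosphatases, ubiquitin ligases and proteases, all were tested and none was called by edgeR (0% of all genes) or by DESeq2, which called 3.05% of all genes for regressing against vehicle, 0.0895% for terminal combination against vehicle and 0.326% between the treated groups. At an unadjusted p under 0.05, 1 of the 11 was lower in regressing than in vehicle tumours (6.03% of all genes) and 1 was higher in terminal combination than in regressing tumours (4.12%), in both cases Inppl1. This gene, which encodes the lipid phosphatase SHIP2 that binds EphA2, averaged 137 ± 44 CPM in vehicle, 82.9 ± 11.2 CPM in regressing and 118 ± 24.2 CPM in terminal combination tumours (edgeR adjusted p = 0.505). Acp1 and Cblb followed with edgeR adjusted p of 0.61 and 0.649.

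The 16 genes of MEK-ERK output, the pathway that mirdametinib blocks, gave no unadjusted p under 0.05 in edgeR in any pair of groups, where 12.7% of all genes did for regressing against vehicle, 5.94% for terminal combination against vehicle and 7.02% between the treated groups. Their median log2 difference was -0.17 for regressing and 0.33 for terminal combination against vehicle tumours. Of the 16, 15 were higher in terminal combination than in regressing tumours, against 7952 of all 15650 genes tested. The median of the 16 in that comparison was 0.26, beside 0.01 over all genes. The genes of this list with the smallest p over the 3 groups were Phlda1, Spry1 and Fosl1, with edgeR adjusted p of 0.591, 0.611 and 0.629. Spry1, a feedback inhibitor of receptor tyrosine kinases, averaged 89.1 ± 39.4 CPM (SD, n = 4) in vehicle, 94.8 ± 44.2 CPM in regressing and 156 ± 41.6 CPM in terminal combination tumours. Spry2, the 1 gene of the list that was lower in terminal combination than in regressing tumours, averaged 60.2 ± 32.8, 75.0 ± 25.6 and 53.2 ± 8.22 CPM in the same order.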

How the data were processed

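The files deposited by the authors hold raw counts by Ensembl identifier (54532 of them) for 12 libraries, made per the labels' protocols with the RNeasy mini and TruSeq Stranded mRNA kits. Per the submitters' processing notes, HISAT2 2.2.1, Salmon, DESeq2 1.24.0, mm10 and GRCm38.p6 were used; which tool counted, on which strand and with which annotation is not given in the sources used here. Symbols, positions and exon lengths came from GENCODE M21 (54495 identifiers matched), promoters from RefSeq (GRCm38.p6).

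Groups were read from titles. Genes were kept by filterByExpr (minimum count 10, total 15), leaving 15650, normalised by TMM and tested with edgeR's quasi-likelihood model on all 12 libraries, with p-values adjusted by Benjamini-Hochberg over all genes tested and a threshold of 0.05. CPM used TMM-adjusted library sizes, and log2 CPM a prior count of 2. The SE was derived from the difference and its F statistic. Correlations used 100000 permutations, two-sided. Replicates of a group differed beyond sampling noise (smallest chi-square per degree of freedom 84.5), so each counted as 1 sample. Fits were tested on simulated data.

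Log2 differences were printed for receptors and ephrins with an unadjusted p under 0.05 or the smallest p of a comparison; of each downstream list the 3 genes with the smallest p over the groups, and for each receptor the 2 nearest genes, were named. 1 further downstream list is not reported here. Members and lists were chosen with earlier results of these data known. Sox10 and Zyx were named after their values were seen. Tools were R 4.3.3, edgeR 4.0.16, DESeq2 1.42.0, Python 3.11.15, pandas 2.3.3, numpy 2.4.6, scipy 1.17.1 and matplotlib 3.10.9.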

Additional observations from a re-analysis of the deposited data

Results flagged for a closer look

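Groups of 4 tumours were screened where some library of the group had more than 3 reads of an Eph receptor or ephrin gene. Of 60 such groups, 9 held a tumour whose gap to the nearest other exceeded Dixon's critical value for 4 samples. The gap was taken as a share of the group's range. Chance gives such a gap in about 1 in 20 groups only for normally distributed values. CPM were not transformed and some groups held mostly 0 reads, so that rate need not hold and the count is a description. Among the 9 tested receptors, Epha2 stood at 81.9 CPM in vehicle replicate 4, where the other vehicle tumours lay at 44.8 to 49.2 CPM. It stood at 99.7 CPM in terminal combination replicate 3, where the others lay at 66.2 to 71.7 CPM. Ephb2 stood at 37.5 CPM in terminal combination replicate 4, beside 13.5 to 16.5 CPM in the others. Epha7, a low receptor, stood at 0.154 CPM in regressing replicate 4, from 2 reads, beside 5.75 to 6.82 CPM in the others.

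Epha5 stood at 6.79 CPM in vehicle replicate 2, where the other vehicle tumours held 0 to 0.117 CPM, and the ephrin gene Efna3 stood at 2.72 CPM in the same tumour, beside 0.152 to 0.408 CPM. Epha1 stood at 14.3 CPM in terminal combination replicate 3, beside 0.819 to 2.4 CPM. That tumour had the highest mean log2 CPM of the 8 tested keratinocyte and epithelial markers among all tumours, 3.44. Krt5 and Krt14, which were not among the 8, stood at 0 and at most 0.399 CPM in terminal combination tumours. The highest Epha1 level of all tumours, 23.0 CPM, was in regressing replicate 3, where the marker mean was 2.89. The part of epithelial cells in the Epha1 level was not tested. In regressing replicate 3, Epha6 and Epha8 each stood at 0.177 CPM, from 4 reads, and at 0 in the other regressing tumours.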

How the results depend on the processing

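The 9 log2 differences of receptors and ephrins with an unadjusted p under 0.05 kept their direction in all 180 values obtained under the alternatives, and 1 of these passed an adjusted p of 0.05, Ephb2 for regressing against vehicle by DESeq2 (-1.41, adjusted p = 0.0405). Their widest relative ranges were those of Epha2 and Ephb6 for terminal combination against regressing, 0.36 to 1.06 and 0.46 to 1.15, and of Epha3 against vehicle, -1.82 to -0.64 for regressing and -1.90 to -0.71 for terminal combination. By DESeq2, 1 receptor was called for regressing against vehicle, and the counts over all genes, 0 in edgeR, were 477 for regressing against vehicle, 14 for terminal combination against vehicle, 51 for terminal combination against regressing and 261 for any difference. Leaving out each library in turn gave 0 to 1 genes for terminal combination against regressing and 0 to 1 for any difference, the 1 gene appearing without terminal combination replicate 4. The number of correlated receptor pairs was 0 to 1 when each library was left out; without vehicle replicate 3 Epha4 and Epha7 passed (r = 0.86, adjusted p = 0.0378). The Ephb4 share was 37.3% with the length of the longest transcript in place of all exons, a setting chosen after seeing the data, as was leaving out the 3 libraries of highest muscle score. No paired analysis was possible because the labels give no replicate numbers shared between groups. Depth limited Epha5, Epha6, Epha8 and Epha10, which had 142, 10, 12 and 1 reads in all.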
